A study of Homo sapiens with 45 samples.

Results

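CXCR4, 1 of 60675 genes in the deposited count tables, was followed by its Ensembl identifier, ENSG00000121966, through every library of the series. The cells were HEK293F, a line derived from human embryonic kidney cells transformed with adenovirus DNA and here grown in suspension. They were making recombinant adeno-associated virus (rAAV), a gene-delivery vector, after transfection with a helper plasmid, a plasmid with the rep and cap genes (RepCap9) and a reporter plasmid with inverted terminal repeats. RNA of 5 lines was sequenced: 293F, labelled wild type (WT), AC1P, labelled WT and polyclonal, and AC1.112, AC1.203 and AC1.230, each labelled WT and clonal. Each line was sampled before transfection (0 h) and 24 h and 72 h after it, with 3 libraries per line and time, which gives 15 groups and 45 libraries. A value of a clonal line describes that clone, and how the AC1 lines were made is not given in the sources used here. No mock-transfected library was analysed here, so plasmids, transfection reagent, fresh medium and time in culture act together in each difference from 0 h. The level of CXCR4 in the 15 groups and its response in each line were the measured values it was chosen by, so they are described here without a test.

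CXCR4 is a G-protein-coupled receptor of the cell surface, and the chemokine CXCL12 is its ligand. On binding CXCL12 it signals through inhibitory (Gi) G proteins to phosphoinositide 3-kinase and MAP kinases, and it steers cell migration. G-protein-coupled receptor kinases and arrestins then shut the signal off, and the ubiquitin ligase ITCH sends the receptor to lysosomes. A second receptor, ACKR3, also binds CXCL12 but acts mainly as a scavenger that removes it. CXCR4 is best known for holding blood stem cells in the bone marrow and as a co-receptor of HIV, and transcription factors that act on its gene include NRF1, SP1, YY1 and the hypoxia-inducible factors (HIF).

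In GENCODE release 29 on GRCh38, CXCR4 lies on the minus strand of chromosome 2, from 136114349 to 136118165, with 3 annotated transcripts and 2224 bases of exon in all. No other annotated gene overlaps it, so its reads cannot be shared with an antisense or overlapping annotated gene, but counts per gene do not separate its transcripts. The 234 bases just upstream of its outermost annotated exon, at chr2:136118166-136118399 on the minus strand (RefSeq promoter table, GRCh38.p14), are shown because NRF1, SP1 and HIF, whose levels are given further on, are known regulators of the gene. Capitals mark GCATGCG, the centre of the NRF1 motif, the GC box GGGCGG that SP1 recognises, the TATA box TATAAA and the letters GCGTG of a HIF core, each searched on both strands.
CXCR4 promoter: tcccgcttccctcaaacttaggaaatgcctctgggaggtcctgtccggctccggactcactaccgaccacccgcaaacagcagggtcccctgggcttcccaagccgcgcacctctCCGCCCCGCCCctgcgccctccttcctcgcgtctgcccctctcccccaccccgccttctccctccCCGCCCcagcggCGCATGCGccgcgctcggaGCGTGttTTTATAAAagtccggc

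GCATGCG matched 2 times, on both strands of overlapping letters that start 42 bases before the exon, and 3.09% of 27305 RefSeq promoters hold it in the same stretch. GC boxes matched 3 times, all on the opposite strand, with 2 of them overlapping, and 40.2% of promoters hold at least 1. TATAAA matched 2 times, once on each strand of the same stretch of letters, against 10.9% of promoters with a match. GCGTG matched 1 time (30.2% of promoters), and ACGTG (17.4%) and the E-box CACGTG (6.0%), which contains ACGTG, did not match. G and C made up 68.4% of these bases, above the value of 76.9% of promoters. These matches describe letters, not bound sites.

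Total counts per library ran from 24727028 to 59837051 with a median of 39247411, and mitochondrial genes took 2.05% to 4.18% of them. CXCR4 had between 79 and 9970 counts in a library. Levels are CPM, counts scaled to a common library size with edgeR's TMM factors. The labels do not say that the 3 libraries of a group came from separate cultures, and p-values therefore rest on the spread among these libraries, which may be technical. In bulk RNA, fewer cells with the transcript and less transcript per cell cannot be told apart.

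Before transfection CXCR4 was a high-level transcript in 293F and stood far lower in every AC1 line, near the middle of the genes kept. The 3 libraries of 293F held 201, 219 and 209 CPM (mean 209.9 ± 8.93, SD, n = 3), which placed CXCR4 at rank 696 among the 21242 genes kept after a filter on low counts. In the AC1 lines its rank at 0 h ran from 9081 (AC1.112) to 12279 (AC1.203). AC1.112 was the highest of the AC1 lines, with 15.4, 16.9 and 12.98 CPM (15.1 ± 1.99). AC1P followed with 10, 8.74 and 7.78 CPM (8.84 ± 1.12).
AC1.230 held 5.85, 5.65 and 5.44 CPM (5.65 ± 0.204), and AC1.203 was lowest, with 4.41, 2.92 and 3.69 CPM (3.67 ± 0.744). No library of one line overlapped another line at 0 h. The mean in 293F was 13.9 times that in AC1.112 and 57.2 times that in AC1.203, while the AC1 lines differed from each other by up to 4.11 times. On the log2 scale of the fit, the difference from 293F was -3.79 (SE 0.084) in AC1.112, -4.56 (0.088) in AC1P, -5.21 (0.093) in AC1.230 and -5.83 (0.10) in AC1.203. Between the clones and AC1P it was 0.78 (0.09) for AC1.112, -0.65 (0.10) for AC1.230 and -1.26 (0.11) for AC1.203.

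**Figure D1:**
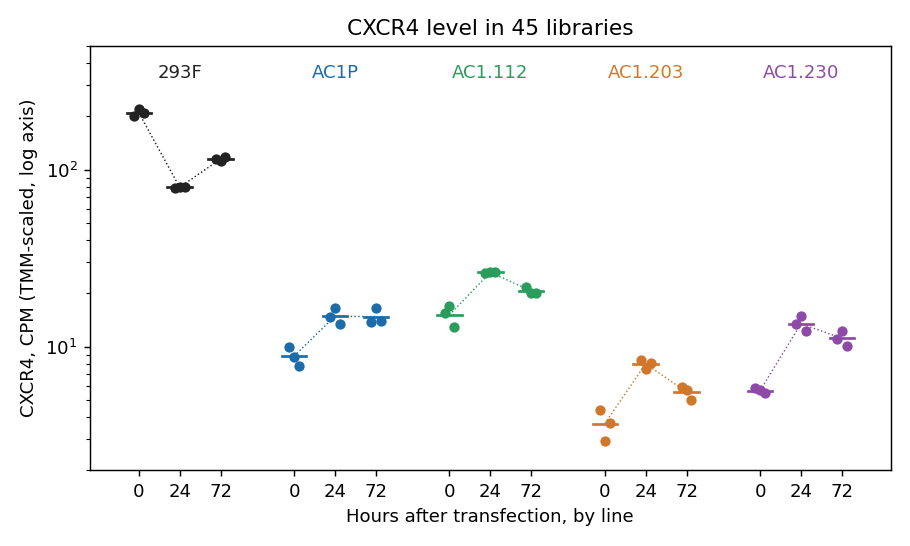
CXCR4 level in CPM on a log axis for each of the 45 libraries, by line and hours after transfection, with a bar at each group mean and a dotted line joining the means of a line. The 3 groups of 293F sit between 78.4 and 219 CPM and every AC1 library between 2.92 and 26.5 CPM.

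After transfection the lines moved towards each other. In 293F, CXCR4 stood at 78.4, 80.1 and 80.0 CPM at 24 h (79.5 ± 0.952) and at 115, 112 and 117 CPM at 72 h (114.8 ± 2.47), below each of its 0 h libraries at both times. AC1.112 held 26.04, 26.3 and 26.5 CPM at 24 h (26.3 ± 0.238) and 21.7, 20.1 and 20.1 CPM at 72 h (20.6 ± 0.926). AC1P held 14.6, 16.4 and 13.5 CPM at 24 h (14.9 ± 1.49) and 13.8, 16.5 and 13.96 CPM at 72 h (14.8 ± 1.54).
AC1.230 and AC1.203 had the lower levels, as at 0 h. AC1.230 held 13.4, 14.8 and 12.2 CPM at 24 h (13.5 ± 1.32) and 11.03, 12.3 and 10.1 CPM at 72 h (11.1 ± 1.07). AC1.203 held 8.40, 7.49 and 8.08 CPM at 24 h (7.99 ± 0.46) and 5.92, 5.68 and 5.02 CPM at 72 h (5.54 ± 0.464). In each of the 4 AC1 lines, every library at 24 h and at 72 h was above every library at 0 h. The excess of 293F over the AC1 lines was 3.02 to 9.95 times at 24 h and 5.57 to 20.7 times at 72 h.

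Ordered by mean, the 3 groups of 293F came first (0 h, then 72 h, then 24 h) and the 3 groups of AC1.112 next (24 h, 72 h, 0 h), and none of the first 5 groups overlapped the group after it. AC1.112 at 0 h, AC1P at 24 h, AC1P at 72 h, AC1.230 at 24 h and AC1.230 at 72 h then formed a run in which each group overlapped the next, with neighbouring means within 1.21 times of each other. AC1P at 0 h overlapped AC1.203 at 24 h, and AC1.230 at 0 h overlapped AC1.203 at 72 h. AC1.203 at 0 h closed the order, 1.51 times below AC1.203 at 72 h and with no overlap.

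Of all 21242 genes kept, 19.8% rose and 22.1% fell in 293F at 24 h at an adjusted p under 0.05 by edgeR, against 9.85% and 9.5% in AC1P, 10.8% and 12.6% in AC1.112, 21% and 20.8% in AC1.203, and 12.1% and 14.7% in AC1.230. At 72 h 18.3% rose and 21.9% fell in 293F, against 12.7% and 13.2% in AC1P, 14.2% and 18.4% in AC1.112, 13.9% and 17% in AC1.203, and 17% and 22.1% in AC1.230. As log2 fold changes, the response at 24 h was -1.40 (SE 0.073) in 293F, or 0.379 times the 0 h level. The 4 AC1 lines went the other way: 0.74 (0.089) in AC1P, 0.79 (0.083) in AC1.112, 1.1 (0.11) in AC1.203 and 1.25 (0.096) in AC1.230, or 1.67 to 2.37 times the 0 h level. At 72 h the response was -0.87 (0.072) in 293F, against 0.44 (0.084) in AC1.112, 0.58 (0.12) in AC1.203, 0.73 (0.092) in AC1P and 0.98 (0.097) in AC1.230. From 24 h to 72 h CXCR4 moved back in 293F, by 0.53 (0.072), and in the clones, by -0.27 (0.087) in AC1.230, -0.35 (0.08) in AC1.112 and -0.53 (0.10) in AC1.203, while AC1P showed -0.02 (0.087), within its error of 0. The differences at 24 h and at 72 h share the same 0 h libraries.

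**Figure D2:**
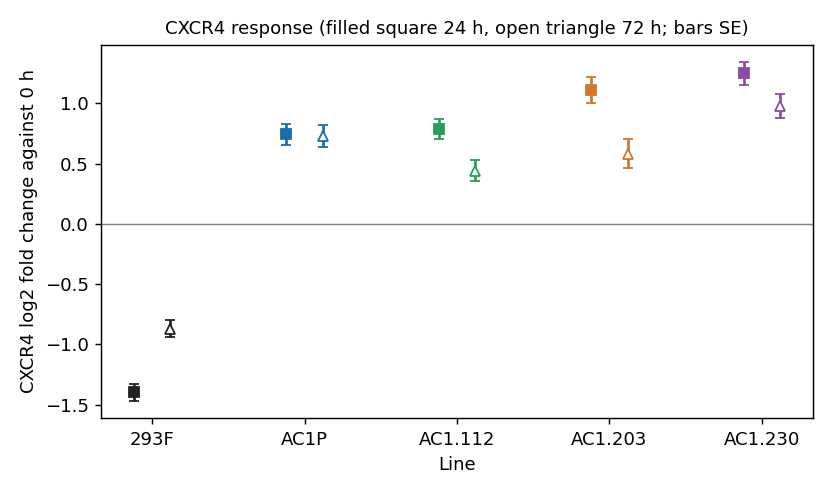
CXCR4 log2 fold change against 0 h in each line, at 24 h (filled squares) and 72 h (open triangles), with SE bars. 293F lies at -1.40 and -0.87, and the AC1 lines lie between 0.44 and 1.25.

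Of the genes kept, 1.97% had a log2 fold change at or below that of CXCR4 in 293F at 24 h, and 4.43% to 7.30% had one at or above that of CXCR4 in each AC1 line. At 72 h these shares were 2.26% in 293F and 11.1% to 20.9% in the AC1 lines. Genes that fell in 293F and rose in all 4 AC1 lines, each at an adjusted p under 0.05 by edgeR, numbered 4 at 24 h (0.0188%) and 4 at 72 h (0.0188%), with CXCR4 in each set, which follows from its choice. With other settings or 1 library left out the number was 2 to 6 at 24 h and 2 to 5 at 72 h, and it was 2 without replicate 2 of AC1.112 at 0 h and without replicate 2 of 293F at 72 h, respectively. The others, named after their values were seen, were BRD2, ETV4 and PODXL at 24 h and HSPH1, RGS16 and USPL1 at 72 h. With library totals alone the fall in 293F did not pass the test for BRD2 (-0.01, adjusted p = 0.845) and PODXL (-0.14, adjusted p = 0.145) at 24 h or for RGS16 (adjusted p = 0.99) and USPL1 (-0.02, adjusted p = 0.895) at 72 h, and HSPH1 turned to 0.06, so that ETV4 was the one of these 6 that stayed. The log2 change of PODXL, a sialomucin of podocytes, at 24 h was -0.25 in 293F and 0.25 to 0.93 in the AC1 lines. ETV4, an ETS-family transcription factor, was sparse, with a mean log2 CPM of 0.23. The mirror pattern, a rise in 293F and a fall in all 4 AC1 lines, held for 9 genes at 24 h (0.0424%) and 8 at 72 h (0.0377%). Genes that rose in all 5 lines or fell in all 5 were far more frequent, with 965 (4.54%) at 24 h and 2264 (10.7%) at 72 h.

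CXCL12, the ligand, was scarce in all 5 lines. Its counts before transfection were 81, 97 and 90 in 293F (2.16 ± 0.146 CPM), 99, 74 and 48 in AC1.230 (1.90 ± 0.379 CPM), 21, 18 and 10 in AC1P, and 6, 10 and 7 in AC1.112. In AC1.203 it had 0 counts in each of the 3 libraries, where 3 counts over the group would be 0.0304 CPM. So 293F and AC1.230 stood together above the other 3 lines, and CXCL12 did not follow the order of CXCR4 among the AC1 lines. The log2 difference from 293F by edgeR was -2.43 in AC1P (adjusted p = 3.16e-08), -3.31 in AC1.112 (adjusted p = 1.14e-10) and -0.18 in AC1.230 (adjusted p = 0.636). No change of CXCL12 with time passed the test in the mean over lines (adjusted p = 0.64 at 24 h and 0.485 at 72 h). In AC1P alone CXCL12 fell by 1.29 at 72 h (adjusted p = 0.0498), from 21, 18 and 10 counts to 5, 1 and 9, and 9 alternatives ended that call, with an adjusted p of up to 0.227, without replicate 2 of AC1P at 72 h.

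Of the other ligands, MIF was abundant and CXCL14 scarce. MIF, a cytokine that binds CXCR4 and CD74, stood at 119 ± 0.385 CPM in 293F at 0 h and at 148 to 190 CPM in the AC1 lines, and in the mean over lines it fell by 0.26 (SE 0.042) at 24 h and by 0.39 (0.042) at 72 h on the log2 scale (edgeR adjusted p = 3.83e-06 and 9.56e-10). HMGB1, a nuclear protein that binds CXCL12 when released, fell by 0.25 (0.021) at 72 h (adjusted p = 1.99e-16), and its response at 24 h differed between lines (adjusted p = 1.97e-11). CXCL11, a ligand of ACKR3, rose by 1.41 (0.42) at 24 h (adjusted p = 0.00328), but its highest library had 30 counts, and without replicate 3 of AC1.230 at 24 h the adjusted p of CXCL11 was 0.0709. CXCL14, a chemokine of epithelia, had at most 35 counts in a library, with 10, 24 and 21 counts in 293F at 0 h, 4, 2 and 0 in AC1P, 1, 2 and 0 in AC1.112, 0, 3 and 2 in AC1.203, and 9, 4 and 7 in AC1.230. Its log2 difference from 293F was -3.11 in AC1P (adjusted p = 0.00112), -3.86 in AC1.112 (adjusted p = 0.000312), -2.94 in AC1.203 (adjusted p = 0.00312) and -1.31 in AC1.230 (adjusted p = 0.108). The change of CXCL14 with time in the mean over lines did not pass the test (adjusted p = 0.199 at 24 h and 0.865 at 72 h).

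ACKR3, on chromosome 2 from 236567787 to 236582358, had the reverse distribution of CXCR4 between 293F and the AC1 lines. In 293F at 0 h its libraries held 1, 4 and 1 counts, while the 12 AC1 libraries held 49 to 140. This was 1.77 to 4.03 CPM in the AC1 lines against 0.025 to 0.0879 CPM in 293F, with no overlap. By edgeR the log2 difference from 293F was 5.18 (SE 0.42) in AC1.112, 5.26 (0.42) in AC1P, 5.54 (0.41) in AC1.230 and 6.12 (0.40) in AC1.203, and the highest of the 4 adjusted p-values was 2.83e-17.
Per kilobase of exon, CXCR4 and ACKR3 were nearly level in AC1.203 at 0 h, at 1.65 and 1.58 RPKM (CPM per kilobase of exon). In the other AC1 lines CXCR4 exceeded ACKR3 by 2.40 times (AC1.230), 4.58 times (AC1P) and 8.27 times (AC1.112). In 293F the values were 94.4 and 0.0205 RPKM, the latter resting on 6 counts.
At 24 h ACKR3 fell in AC1.203, from 2.86, 3.8 and 4.03 CPM to 1.13, 0.966 and 1.39 CPM (log2 change -1.61, adjusted p = 2.13e-07), and in AC1.112, from 1.90, 1.77 and 1.89 CPM to 0.731, 1.21 and 0.786 CPM (-1.03, adjusted p = 0.00298). Its log2 change was -0.31 in AC1P (adjusted p = 0.43) and -0.02 in AC1.230 (adjusted p = 0.973), and the response differed between lines (adjusted p = 4.89e-05). At 72 h its log2 change in AC1.203 was -0.31 (adjusted p = 0.332). In 293F, where ACKR3 had 2, 14 and 6 counts at 72 h, it rose by 1.71 (adjusted p = 0.0186). That call rested on few counts and did not hold without replicate 2 of 293F at 72 h (1.04, adjusted p = 0.306), without replicate 1 or 3 of 293F at 0 h (adjusted p = 0.0883 and 0.0808) or with thinned libraries (adjusted p = 0.167).

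Of the other proteins that touch the axis, CD44, a hyaluronan receptor that helps CXCR4 signal, was also lower in 293F: 55.5 ± 4.27 CPM at 0 h against 307 to 440 CPM in the AC1 lines, a log2 difference of 2.47 to 2.99 (highest adjusted p = 5.73e-45). At 72 h CD44 rose in 293F by 0.28 (adjusted p = 3.75e-05) and fell in the 3 clones by 0.23 to 0.44, with a test of the difference between lines of adjusted p = 1.19e-09. Scaled by library totals alone, the fall of CD44 in AC1.230 did not pass the test (adjusted p = 0.343). DPP4, a peptidase that inactivates CXCL12, stood at 8.84 CPM in 293F at 0 h, above AC1.230 (5.59 CPM), AC1P (4.79 CPM) and AC1.112 (3.42 CPM) and below AC1.203 (16.2 CPM). In the mean over lines DPP4 fell by 0.33 (SE 0.057) at 24 h (adjusted p = 1.15e-06), but its response differed between lines (adjusted p = 0.00206, and 0.0879 without AC1.203). DPP4 fell in 293F by 0.56 (adjusted p = 8.8e-05) and in AC1.203 by 0.71 (adjusted p = 6.75e-07), and its log2 change was 0.01 in AC1P, -0.23 in AC1.112 and -0.18 in AC1.230 (adjusted p = 0.974, 0.284 and 0.336). CD74, the MIF receptor, was sparse, at 1.94 CPM in 293F at 0 h (1.67 to 2.11 CPM in a library). Its AC1 libraries lay lower at 0 h, at 1.02 to 1.29 CPM in AC1.230 and 0.154 to 0.489 CPM in AC1P, AC1.112 and AC1.203.
Other chemokine receptors were all but absent. Of 23 searched, 5 passed the filter on low counts, and neither CXCR3 nor CXCR6 had a single count in 45 libraries. At 24 h 2 of the 5 rose and 1 fell in the mean over lines, where 25.8% of all genes rose and 27.6% fell. CX3CR1, the fractalkine receptor, rose by 1.69 (SE 0.33, adjusted p = 1.36e-05) and CCR4 by 1.54 (0.42, adjusted p = 0.00153), with at most 44 and 51 counts in a library. Without 293F the rise of CCR4 did not pass the test (0.74, adjusted p = 0.199), nor with libraries thinned to the smallest total (adjusted p = 0.0558). CCR10, a receptor of epithelial and skin-homing cells, fell by 0.94 (SE 0.14) at 24 h in the mean over lines (adjusted p = 3.94e-08), from a level of 0.829 to 1.95 CPM at 0 h.

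The lists of pathway genes held 157 genes besides CXCR4, of which 135 were tested. In the mean over lines at 24 h, 46 rose and 59 fell at an adjusted p under 0.05, where 25.8% of all genes rose and 27.6% fell. At 72 h 28 rose and 61 fell, where 30.3% of all genes rose and 29.5% fell. From 24 h to 72 h 39 rose and 60 fell, where 29.3% of all genes rose and 28.7% fell. These directions depend on the scaling of the libraries: with library totals alone, which raised the median log2 change of all genes by 0.15 at 72 h, 70 members rose and 26 fell at 72 h, and 38 fell at 24 h. The median log2 change of the members was -0.04 at 24 h and -0.05 at 72 h, against -0.006 and 0.028 over all genes. Responses differed between lines for 72 of the 135 at 24 h, where 43.9% of all genes differed, and for 42 at 72 h, where 23.2% of all genes differed. Without 293F the count at 72 h was 23.

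The G proteins that carry the signal of CXCR4 mostly fell, by small amounts. Of 17 tested, 4 rose and 11 fell at 24 h, where 25.8% of all genes rose and 27.6% fell, with a median log2 change of -0.16. GNG2, a gamma subunit, fell by 0.50 (SE 0.034, adjusted p = 4.04e-20), and its response differed between lines (adjusted p = 6.3e-08). GNA13, a G protein alpha subunit, rose by 0.33 (0.021, adjusted p = 1.02e-21). At 72 h 1 rose and 12 fell, where 30.3% of all genes rose and 29.5% fell, among them the Gi subunits GNAI2, by 0.31 (0.03, adjusted p = 3.92e-13), and GNAI3, by 0.33 (0.021, adjusted p = 2.26e-21). With library totals alone 6 of the 17 rose and 8 fell at 72 h.

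Genes that switch the receptor off or sort it for degradation went both ways. Of 15 desensitisation genes tested, 5 rose and 8 fell at 24 h and 3 rose and 3 fell at 72 h, where of all genes 25.8% rose and 27.6% fell at 24 h and 30.3% rose and 29.5% fell at 72 h. GRK5, a receptor kinase, rose by 0.41 (SE 0.053) at 24 h (adjusted p = 5.54e-10), and GRK3 by 0.24 (0.028) at 72 h (adjusted p = 6.06e-11). Of 16 sorting genes, 6 rose and 6 fell at 24 h and 3 rose and 8 fell at 72 h. With library totals alone, 5 desensitisation genes rose and 4 fell at 24 h and 10 rose and 0 fell at 72 h, and 7 sorting genes rose and 2 fell at 24 h and 10 rose and 4 fell at 72 h.
The ubiquitin ligase ITCH rose by 0.17 (SE 0.023) at 24 h (adjusted p = 7.8e-09), and its partner in CXCR4 sorting, DTX3L, rose by 0.45 (0.031) at 24 h and 0.44 (0.031) at 72 h (adjusted p = 3.99e-20 and 1.45e-19). RAB11A, a GTPase of recycling endosomes, fell by 0.36 (0.02) at 24 h (adjusted p = 3.15e-24). The response of DTX3L at 72 h differed between lines (adjusted p = 2.75e-07), from 0.19 in AC1P to 0.85 in 293F. In AC1P its adjusted p at 72 h was 0.0364, and 0.221 without replicate 1 of AC1P at 0 h.

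RGS16 speeds the shut-off of Gi signals, and it changed in 293F in the same direction as CXCR4. Its libraries in 293F held 42 to 46.1 CPM at 0 h and 22.3 to 24.9 CPM at 24 h, without overlap, a log2 change of -0.90 (adjusted p = 2.88e-19). In AC1P it rose by 0.27 (adjusted p = 0.000963) and in AC1.203 by 0.40 (adjusted p = 1.55e-07), while in AC1.112 and AC1.230 the values were 0.04 and 0.08 (adjusted p = 0.663 and 0.42). The responses differed between lines at 24 h (adjusted p = 4.01e-19) and at 72 h (adjusted p = 1.13e-13). At 72 h RGS16 rose in all 4 AC1 lines, by 0.19 to 0.85, and fell in 293F by 0.20 (adjusted p = 0.00578). With library totals alone the adjusted p of RGS16 in 293F at 72 h was 0.99, and without replicate 1 of AC1.112 at 0 h that in AC1.112 was 0.111.

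Downstream of the receptor, 9 of 24 relay genes rose and 10 fell at 24 h (25.8% and 27.6% of all genes), and 5 rose and 9 fell at 72 h (30.3% and 29.5% of all genes). MAPK3, which encodes the kinase ERK1, fell by 0.55 (SE 0.028) at 24 h (adjusted p = 2.87e-24). PIK3R1, a regulatory subunit of phosphoinositide 3-kinase, rose by 0.30 (0.037, adjusted p = 1.83e-10). With library totals alone, 10 relay genes rose and 5 fell at 24 h and 15 rose and 2 fell at 72 h.

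Transcription factors known to act on the CXCR4 gene differed between 293F and the AC1 lines in both directions. At 0 h, 7 or 8 of 14 were higher and 4 or 5 lower than in 293F, depending on the AC1 line, where of all genes 30% were higher and 32.4% lower in AC1P, 30.4% and 32.2% in AC1.112, 28.2% and 29.6% in AC1.203, and 30.5% and 31.6% in AC1.230. FOXC1, a forkhead factor, was lower by 0.85 to 1.14 on the log2 scale (highest adjusted p = 8.13e-22), and EPAS1, which encodes HIF-2 alpha, by 0.64 to 2.00 (highest adjusted p = 1.08e-06). NRF1 was higher in the AC1 lines, by 0.30 to 0.59, and SP1 by 0.56 to 0.97 (highest adjusted p = 0.000505 and 4.78e-16). For NRF1 in AC1.203 the adjusted p was 0.19 with library totals alone.
YY1, which represses or activates its targets, was higher than in 293F by 0.17 to 0.49 in AC1P, AC1.203 and AC1.230, and by 0.04 in AC1.112 (adjusted p = 0.418). With library totals alone the difference in AC1.203 was -0.007.
After transfection NFKB1, a subunit of NF-kB, rose in all 5 lines at 24 h, by 0.36 in AC1.230 to 1.27 in AC1.203 (mean 0.68, SE 0.027, adjusted p = 2.03e-31), and its response differed between lines (adjusted p = 5.95e-14). HIF1A changed little, with a mean of -0.08 (0.022, adjusted p = 0.00179) at 24 h, and the adjusted p of HIF1A was 0.435 with library totals alone. NRF1 fell by 0.43 (0.034) at 72 h (adjusted p = 2.05e-17).

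MYC and SOX4 had the smallest adjusted p of that list in the test of whether responses at 24 h differ between lines. MYC stood at 232 to 250 CPM in 293F at 0 h and at 97.5 to 99.3 CPM at 24 h, a log2 change of -1.29 (adjusted p = 6.44e-32). In AC1P it rose by 0.39, from 549 ± 2.79 to 718 ± 11.6 CPM (adjusted p = 4.87e-09), and in AC1.230 by 0.21 (adjusted p = 0.000426), while AC1.112 and AC1.203 showed 0.02 and 0.03 (adjusted p = 0.822 and 0.654). The difference between lines had an adjusted p of 3.97e-30 at 24 h and 1.16e-20 at 72 h. At 72 h the mean of MYC was below its 0 h mean in the clones as well as in 293F. It went from 242 to 109 CPM in 293F, from 780 to 617 CPM in AC1.112 and from 592 to 485 CPM in AC1.203. In AC1.230 it went from 683 to 566 CPM, and in AC1P from 549 to 560 CPM. CXCR4 rose in these clones. MYC was higher in the AC1 lines than in 293F before transfection, by 1.19 to 1.69 on the log2 scale, the reverse of CXCR4.
SOX4, a transcription factor of progenitor cells, fell in 293F by 0.61 at 24 h (adjusted p = 2.05e-17) and rose in AC1P by 0.33 (adjusted p = 1.77e-07) and in AC1.230 by 0.20 (adjusted p = 0.000722). Its responses differed between lines at both times (adjusted p = 6.12e-18 and 7.74e-09). At 0 h SOX4 stood at 169 ± 4.64 CPM in 293F and 160.0 ± 4.05 CPM in AC1P, a difference that did not pass the test (adjusted p = 0.149). AC1.230 held 159 to 162 CPM at 0 h. AC1.112 held 151 to 154 CPM at 0 h and 136 to 161 CPM at 24 h. AC1.203 was lowest, with 105 to 115 CPM at 0 h and 105 to 110 CPM at 24 h.

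Of 15 target genes of HIF, to which CXCR4 itself is usually counted, 6 rose and 6 fell at 24 h, where 25.8% of all genes rose and 27.6% fell, and 5 rose and 9 fell at 72 h (6 and 3 with library totals alone), where 30.3% of all genes rose and 29.5% fell. VEGFA, the vascular growth factor, rose at 24 h and at 72 h, with a mean over lines of 0.51 (SE 0.049, adjusted p = 1.74e-11) and 0.64 (0.049, adjusted p = 2.31e-14). In AC1P at 24 h its adjusted p was 0.0273, and the call ended with the replicate block (0.0602), with AC1P fitted alone (0.0629) and without 1 of 4 libraries (0.0672 to 0.174, the highest without replicate 3 of AC1P at 0 h). In AC1.112 the adjusted p of VEGFA was 0.00814, and 0.122 without replicate 2 at 0 h and 0.0852 without replicate 3 at 24 h. NDRG1, a stress-induced gene, fell in 293F from 295 to 297 CPM at 0 h to 112 to 115 CPM at 24 h (-1.38, adjusted p = 9.43e-33). It fell in AC1.203 by 0.94 (adjusted p = 4e-24) and in AC1.112 by 0.25 (adjusted p = 0.00011), and AC1P and AC1.230 showed 0.03 and -0.05 (adjusted p = 0.783 and 0.537). Its response differed between lines at 24 h (adjusted p = 1.04e-27) and at 72 h (adjusted p = 4.67e-06), with no line in which it rose.

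**Figure D3:**
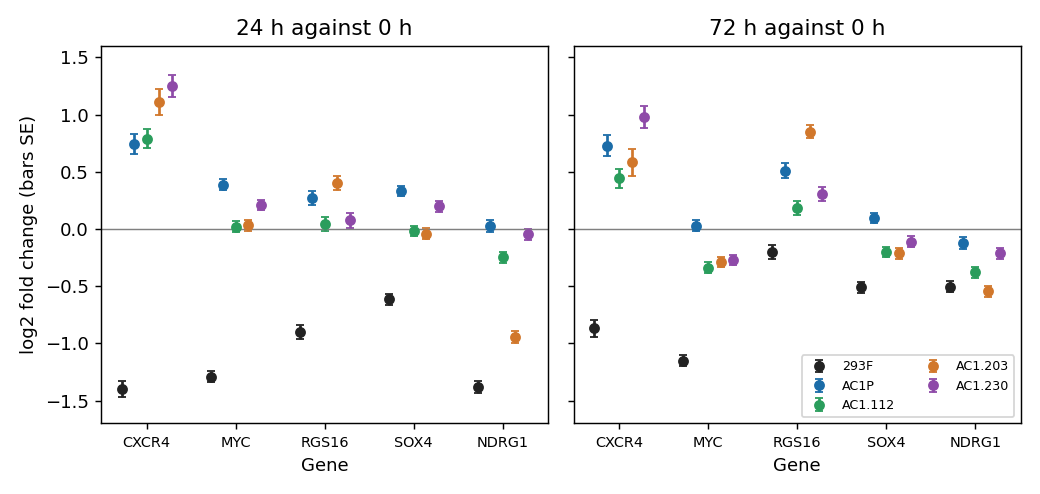
Log2 fold change against 0 h, with SE bars, of CXCR4 beside MYC, RGS16, SOX4 and NDRG1 in the 5 lines, at 24 h (left) and 72 h (right). At 24 h 293F holds the lowest point of each gene, and CXCR4 is the gene whose 4 AC1 points all lie above 0.7.

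The genes whose level followed CXCR4 most closely over the 15 group means of log2 CPM were FBXO32 (Pearson r = 0.958), KHDRBS3 (0.957), SIPA1L2 (0.952), TPRG1L (0.95), HIF1AN (0.95) and AMOT (0.947), among 11853 protein-coding genes whose mean log2 CPM was 1 or more. FBXO32 encodes a subunit of a ubiquitin ligase of muscle wasting, and HIF1AN the asparagine hydroxylase that inhibits HIF. At 0 h each was higher in 293F than in any AC1 line: FBXO32 stood at 18.3 CPM there at 0 h and at 4.52 to 8.53 CPM in the AC1 lines, and AMOT, a scaffold of the Hippo pathway, at 561 CPM against 5.93 to 17 CPM. The points share libraries and the step between 293F and the AC1 lines. Without 293F, r over 12 means was 0.75 to 0.868 for these 6 genes. The lowest r were those of ADAM23 (-0.960), EMP3 (-0.957) and SLC4A4 (-0.95).
By the 10 responses (24 h and 72 h against 0 h in 5 lines), MYC was most like CXCR4 (r = 0.926), followed by HAS2 (0.866), IRS4 (0.783), TSC22D3 (0.762), TXNDC5 (0.754) and MMP15 (0.753), among 354 genes whose responses had an SD of at least 0.5. HAS2 makes hyaluronan and IRS4 is an adaptor of insulin signalling. A high r does not mean a change in the same direction. The mean of HAS2 was below its 0 h value in every line at both times. At 24 h it went from 8.1 to 5.11 CPM in AC1P and from 25.2 to 9.14 CPM in AC1.112, where CXCR4 rose. IRS4 went from 318 to 254 CPM in AC1.203 and from 4.25 to 4.63 CPM in AC1P. Without 293F, r over 8 responses was 0.456 for MYC, 0.385 for TXNDC5, 0.243 for IRS4, 0.226 for HAS2, 0.195 for MMP15 and -0.335 for TSC22D3. The lowest r were those of NAPRT (-0.956), HHIP (-0.936) and RAB39B (-0.905), and without 293F these were -0.315, -0.473 and -0.359.

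The 6 neighbours of CXCR4 on chromosome 2 described here, all protein-coding and within 1 Mb, differed much less between lines. At 0 h the AC1 lines differed from 293F by -0.40 to 0.89 on the log2 scale for MCM6, UBXN4, R3HDM1, ZRANB3 and RAB3GAP1, where CXCR4 stood 3.79 to 5.83 below 293F, and by -2.58 to -0.24 for LCT, which had at most 25 counts in a library and passed the test in no line. MCM6, a subunit of the replicative helicase at 237923 bases, fell by 0.39 (SE 0.021) at 72 h in the mean over lines (adjusted p = 1.18e-24).

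**Figure D4:**
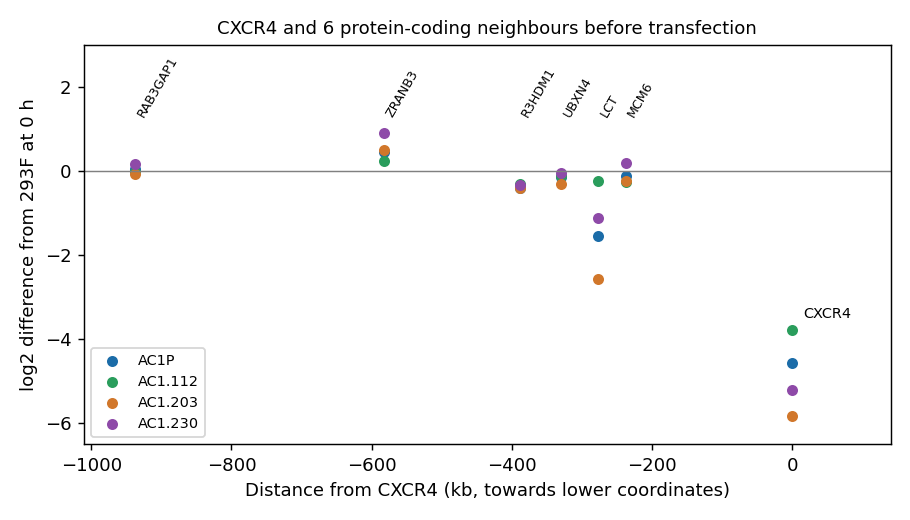
Log2 difference of each AC1 line from 293F at 0 h for CXCR4 (at 0) and 6 protein-coding neighbours, against their distance from CXCR4 in kb towards lower coordinates. CXCR4 lies between -5.83 and -3.79, and the neighbours other than the sparse LCT lie between -0.40 and 0.89.

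Markers of other cells that carry CXCR4 were low throughout. Of 12 markers of blood cells 6 passed the filter, and their list summed to 2.30 to 8.26 CPM in a library, with the highest sums in AC1.230. MS4A1 had 0 counts in all 45 libraries, and PTPRC, the pan-leukocyte marker CD45, had 41 counts over all of them. Of 8 endothelial markers 6 passed, with sums of 0.994 to 7.25 CPM, the highest in 293F at 72 h, and CDH5 had at most 6 counts in a library.
All 13 markers used for HEK293 cells passed the filter, and their sums were 1230 to 1290 CPM in 293F at 0 h and 5750 to 7040 CPM in the AC1 lines. Most of that gap was NEFM, a neurofilament gene, at 1.70 CPM in 293F and 3660 to 4410 CPM in the AC1 lines. Fibroblast markers, 5 of 7 of which passed, summed to 39.7 to 41.7 CPM in 293F at 0 h and 10.3 to 35.9 CPM in the AC1 lines. So at 0 h the HEK293 sum was lower in 293F than in the AC1 lines, the reverse of CXCR4, and the fibroblast sum was highest in 293F but next highest in AC1.203 (32.6 to 35.9 CPM), the AC1 line with the least CXCR4. The part of these differences in that of CXCR4 between lines was not tested.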

How the data were processed

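Poly(A) RNA of 45 libraries was prepared with an Illumina stranded mRNA kit, per the labels' protocols. The deposited values are raw counts per gene. HISAT2, Subread and featureCounts with GRCh38 are named in the submitters' processing notes, without versions; whether counting used strand, and with which annotation, is not given in the sources used here. Symbols and positions came from GENCODE 29 (56558 of 60675 identifiers had a symbol) and the promoter from RefSeq.

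Genes passed edgeR's filterByExpr (minimum count 10, minimum total 15), which left 21242. Counts were scaled by TMM and fitted with edgeR 4.0.16 (quasi-likelihood, robust; R 4.3.3) over 15 groups, so that all groups share 1 estimate of the spread. P-values were Benjamini-Hochberg adjusted over all genes kept, with a threshold of 0.05. Log2 CPM values carry a prior count of 2, log2 fold changes edgeR's default prior count, and RPKM is scaled CPM per kilobase of exon. Alternatives were other scalings, no filter, DESeq2 1.42.0, a replicate block, thinning, each line alone, and each line or library left out. The code was tested on simulated data. Counting intervals and floors cover counting error only.

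The gene, the lists and the tests were chosen with earlier results of these data known. Named genes were all members of the ligand, receptor and transcription factor lists and neighbours within 1 Mb, up to 4 members of each other list with the largest called mean change at 24 h and 72 h, and the 6 highest and 3 lowest correlations of each kind; markers at 0 and genes said to be chosen after their values were seen lie outside this rule. Some members are not reported here.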

Additional observations from a re-analysis of the deposited data

Results flagged for a closer look

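CXCR4 moved in opposite directions in 293F and in the AC1 lines, with no overlap between libraries before and after transfection in any line. Its log2 change in 293F was -1.40 at 24 h and -0.87 at 72 h, and it was above 0 in all 4 AC1 lines. The difference was not tested, since the gene was chosen on it.

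Responses at 24 h differed between the 5 lines by edgeR's test of the interaction of line and time for MYC (adjusted p = 3.97e-30), NDRG1 (1.04e-27), RGS16 (4.01e-19), SOX4 (6.12e-18), NFKB1 (5.95e-14), HMGB1 (1.97e-11), GNG2 (6.3e-08), ACKR3 (4.89e-05), CD44 (5.66e-05) and DPP4 (0.00206). At 72 h they differed for MYC (1.16e-20), RGS16 (1.13e-13), CD44 (1.19e-09), SOX4 (7.74e-09), DTX3L (2.75e-07) and NDRG1 (4.67e-06). Of all genes, 43.9% differed at 24 h and 23.2% at 72 h. Other pathway members passed too, some with a smaller adjusted p than members listed here.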

How the results depend on the processing

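The responses of CXCR4 at 24 h and 72 h and its differences from 293F kept their direction under every alternative run. Scaling by library totals alone gave -1.29 at 24 h and -0.67 at 72 h in 293F, 0.60 in AC1.112 and 1.15 in AC1.230 at 72 h, and differences from 293F at 0 h of -4.75 in AC1P, -4.01 in AC1.112 and -5.39 in AC1.230, and thinning gave -5.29 for the last. For pathway members it gave 38 that fell at 24 h, 70 that rose and 26 that fell at 72 h, and 37 that fell from 24 h to 72 h. Without 293F, 23 members differed between lines at 72 h. The change of CXCR4 in AC1P from 24 h to 72 h turned to 0.0609 with library totals, and leaving out 1 library gave -0.104 to 0.0334, with 0.00286 and 0.0199 without replicates 1 and 3 at 72 h.
Library totals alone also turned small log2 values of single genes: the mean at 72 h of HIF1A (0.013), RAB3GAP1 (0.0827) and UBXN4 (0.0302), the change at 72 h in 293F of ITCH (0.0675), MAPK3 (0.00561), FOXC1 (0.049) and HSPH1 (0.0564) and in AC1.230 of R3HDM1 (0.011), and the difference from 293F at 0 h of GRK3 in AC1P (-0.0227) and AC1.203 (-0.0173), YY1 in AC1.203 (-0.00655), and GNAI3 (-0.00687) and RAB3GAP1 (-0.0159) in AC1.230. Without 293F the mean of MYC at 24 h was 0.164. The cause was not tested for any of these.

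Leaving out each of the 45 libraries gave 40 to 46 members that rose and 56 to 61 that fell at 24 h, and 24 to 28 and 57 to 63 at 72 h. Over all lines, replicate numbers gave no clear sign of pairing. The 45 correlations of deviations between same-numbered libraries ran from -0.353 to 0.379 (median 0.0222), and 17 of 45 were best with their own number. With 3 libraries per group, this check cannot exclude pairing within a line. With the replicate block CXCR4 in 293F at 24 h was -1.40, and 46 members rose and 60 fell at 24 h. DESeq2 was not run for the test between lines. Low counts limit CXCL12, CXCL11, CXCL14 and ACKR3 in 293F.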
